A study of Mus musculus with 9 samples.

Results

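The nuclear genes of the respiratory chain and ATP synthase were followed over 3 stages of mouse neural crest development. Members were taken by symbol alone, from array probe sets annotated to exactly 1 gene, as symbols that start with Nduf, Uqcr, Cox4, Cox5, Cox6, Cox7, Cox8 or Atp5 together with Sdha to Sdhd. Ndufa4l2 and Cox4i2 were left out. The rule gave 88 of the 18193 genes on the array, represented by 177 of 34945 probe sets, and 84 of the 88 passed the filter on dim signals and were tested. They comprised 34 complex I subunits, 8 complex I assembly factors, 4 complex II subunits, 8 complex III subunits, 17 complex IV genes and 17 ATP synthase genes. The 4 genes not tested were Ndufb4, Cox6a2, Cox6b2 and Cox7b2.

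RNA came from cells isolated by laser capture as neural crest or its derivatives, and was hybridised to 9 Affymetrix arrays, 3 per stage. The stages were embryos at E8.5, during closure of the neural tube, dorsal root ganglia at E13.5, and the adrenal medulla of adult mice aged 3 months (P90). No strain, sex, genotype or treatment is given in the labels. The labels call the arrays of a stage biological replicates but do not say how many animals each capture used, so the spread between arrays may be partly technical. Stage and tissue changed together in this design and cannot be told apart. Because whole captured regions were measured, fewer cells of a type and less RNA per cell cannot be told apart either.

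The respiratory chain passes electrons from NADH, at complex I, and from succinate, at complex II, through complex III and cytochrome c to oxygen at complex IV. Complexes I, III and IV pump protons across the inner mitochondrial membrane, and ATP synthase uses the returning protons to make ATP. Most subunits are encoded in the nucleus and are present in nearly all cells, while some complex IV subunits exist as isoforms that differ between tissues: Cox6a2, Cox7a1 and Cox8b are the forms known from heart and skeletal muscle, the last pair also from brown fat, and Cox6b2, Cox7b2 and Cox8c are known from testis. Neurons and chromaffin cells, the catecholamine-secreting cells of the adrenal medulla, rely on the chain for the ATP spent on ion pumping and secretion.

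The promoters of 4 genes that passed the test in at least 1 comparison are shown first. They were picked because they differ in a sequence for a factor that is known to act on respiratory genes. Those of Ndufv3 and Ndufaf6, which also passed, are not shown. RefSeq's promoter table (GRCm38.p6, 250 bases before to 50 after the start of the gene) held 74 of the 88 genes. The letters GCGCATGC, a recognition sequence of nuclear respiratory factor 1 (NRF1), and their reverse complement GCATGCGC are in capitals. All sequences run 5′ to 3′ on the strand of the gene.
Ndufaf4: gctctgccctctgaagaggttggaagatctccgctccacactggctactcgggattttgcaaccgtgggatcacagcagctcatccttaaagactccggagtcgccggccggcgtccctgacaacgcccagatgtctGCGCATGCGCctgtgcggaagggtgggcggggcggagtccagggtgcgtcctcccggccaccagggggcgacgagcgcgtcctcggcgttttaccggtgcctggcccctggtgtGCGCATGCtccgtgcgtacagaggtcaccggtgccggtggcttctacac
Ndufa6: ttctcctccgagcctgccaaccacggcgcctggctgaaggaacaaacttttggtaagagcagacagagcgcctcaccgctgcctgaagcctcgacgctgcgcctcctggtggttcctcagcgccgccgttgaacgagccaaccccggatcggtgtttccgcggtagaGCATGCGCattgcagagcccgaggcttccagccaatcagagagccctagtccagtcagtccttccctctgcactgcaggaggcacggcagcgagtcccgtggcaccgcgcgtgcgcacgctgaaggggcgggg
Cox7a1: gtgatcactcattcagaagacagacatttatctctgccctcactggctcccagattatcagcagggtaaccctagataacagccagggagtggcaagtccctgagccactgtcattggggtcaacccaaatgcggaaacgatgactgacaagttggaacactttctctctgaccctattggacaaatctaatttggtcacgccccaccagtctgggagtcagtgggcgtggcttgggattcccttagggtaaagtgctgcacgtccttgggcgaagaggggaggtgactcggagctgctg
Cox8b: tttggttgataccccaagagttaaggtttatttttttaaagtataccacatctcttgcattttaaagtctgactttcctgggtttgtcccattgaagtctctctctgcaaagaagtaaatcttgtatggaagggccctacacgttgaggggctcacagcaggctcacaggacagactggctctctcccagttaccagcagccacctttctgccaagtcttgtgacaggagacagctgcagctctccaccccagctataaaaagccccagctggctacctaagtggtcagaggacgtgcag
The window of Ndufaf4 lies at chr4:24897833-24898132 on the plus strand, that of Ndufa6 at chr15:82354242-82354541 on the minus strand, that of Cox7a1 at chr7:30183921-30184220 on the plus strand and that of Cox8b at chr7:140900397-140900696 on the minus strand. Counted from the 5′ end of the printed window, Ndufaf4 held the NRF1 letters at bases 138, 140 and 252, of which the first and second overlap, and Ndufa6 held them at base 168. The windows of Cox7a1 and Cox8b, both tissue isoforms of complex IV, held neither these letters nor the other 3 motifs searched.

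A set of 4 short motifs was searched on both strands of these windows. The NRF1 letters were held by 11 of the 74 genes (14.9%), against 3.05% of all 27025 genes with a promoter entry. The core CCGGAAG, bound by the ETS factor GABPA, was held by 19 (25.7%), against 9.93% of all genes. The letters AAGGTCA, a recognition sequence of the estrogen-related receptors, were held by 8 (10.8%), against 5.38%. The core AAGATGGC of YY1 was held by 10 (13.5%), against 3.19%. Genes with the NRF1 letters came from every complex and included, beside Ndufaf4 and Ndufa6, Atp5g2, Atp5k, Cox6a1, Ndufa8, Ndufaf5, Sdhb, Uqcr11 and Uqcrc1. Atp5l and Atp5k held 3 of the 4 motifs each. These are matches of letters, not measured binding.

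Before the stages are compared, the arrays themselves have to be described, because the members moved together from array to array within a stage. On the 3 E8.5 arrays the members were closely alike: the median SD of log2(signal + 16) over the 84 genes was 0.20, against 0.27 for all 13748 genes tested. At E13.5 it was 0.69, against 0.48 for all genes, and at P90 0.59, against 0.41. E13.5 replicate 2 was the lowest array of its stage for 81 of 84 members (96.4%), against 61.4% of all genes, and E13.5 replicate 1 was the highest for 72 (85.7%), against 45.9%. P90 replicate 1 was the highest array of its stage for 75 of 83 members without an empty cell (90.4%), against 54.4% of all genes, and P90 replicate 3 was the lowest for 78 (94%), against 58%.

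The size of this movement was large beside most stage differences. Relative to the mean of its stage, the median member lay at 0.54, -0.74 and 0.19 log2 units on E13.5 replicates 1, 2 and 3, and at 0.56, -0.04 and -0.57 on P90 replicates 1, 2 and 3. On the E8.5 arrays it lay at 0.00, 0.02 and 0.01. The medians of all genes moved the same way on the outer arrays but less, to 0.13 and -0.30 on E13.5 replicates 1 and 2 and to 0.17 and -0.22 on P90 replicates 1 and 3. Atp5b, the catalytic beta subunit of ATP synthase, showed the widest spread, with signals of 6348, 306 and 1784 on the 3 E13.5 arrays.

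Actb is measured by control probe sets near its 3′ end and near its 5′ end, and the excess of the 3′ over the 5′ signal grows where RNA is shortened. It was 4.82, 2.05 and 2.39 log2 units on the E8.5 arrays, 0.85, 7.0 and 2.87 at E13.5 and 1.36, 4.09 and 3.51 at P90. E13.5 replicate 2, the lowest array for most members, had the largest difference of all 9, and E13.5 replicate 1 and P90 replicate 1, the highest of their stages, had the smallest. Other arrays did not follow this order. P90 replicate 3, the lowest of its stage for most members, had a smaller difference than P90 replicate 2. E8.5 replicate 1 had 4.82, with its median member at 0.00 from the mean of its stage. With stage in the model, the log2 signal of 79 of the 84 members (94%) declined with this difference, against 65% of all genes, by a median of -0.20 per unit, against -0.06. The slopes rest on 9 arrays on which the members moved together, so the 79 are not separate observations. Within a stage, the Actb difference was spread widest at E13.5, from 0.85 to 7.0. The slope was steepest for Atp5b at -0.71, Ndufa9 at -0.54, Ndufs1 at -0.50 and Atp5c1 at -0.50, and it was above 0 for Cox8b, Cox7a1, Cox7c, Cox8c and Ndufs4. The part of RNA length in the stage comparisons was not tested.

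**Figure D1:**
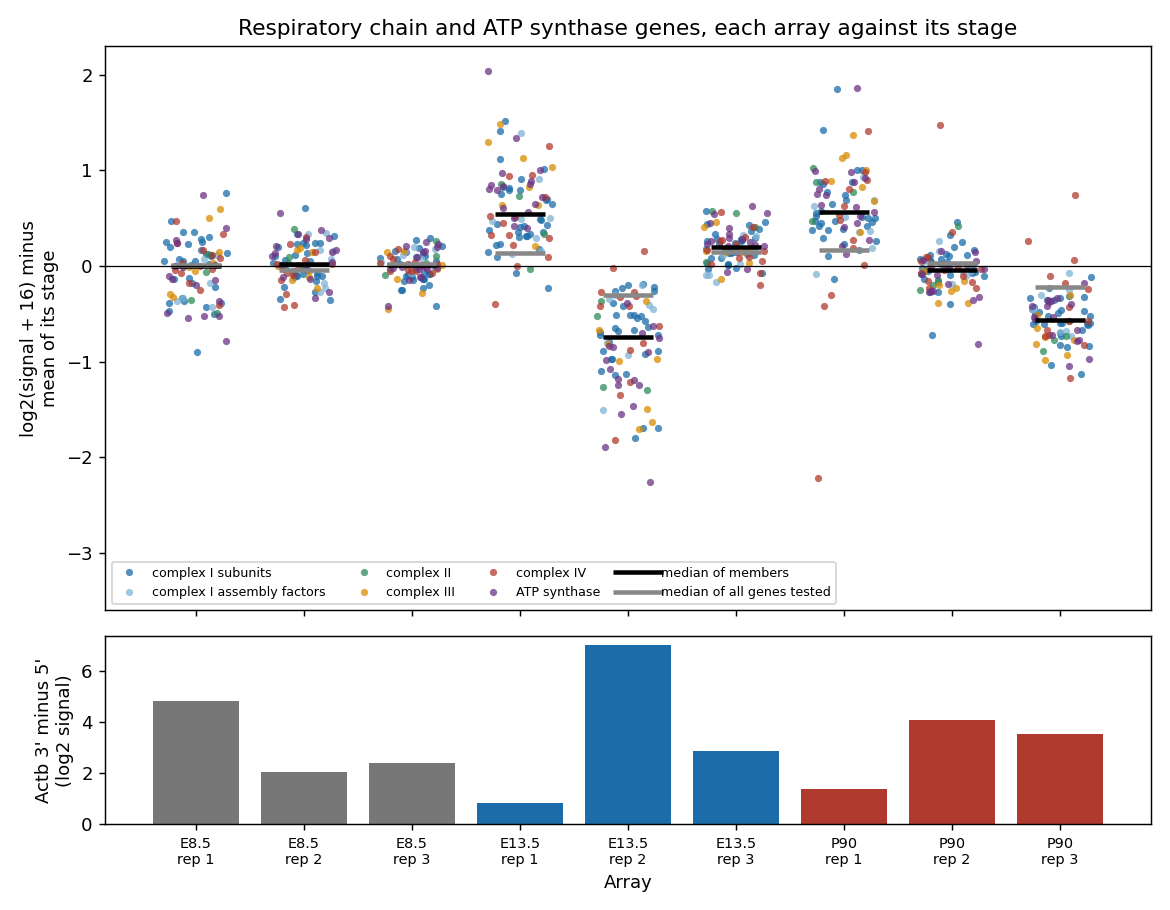
Upper panel: log2(signal + 16) of each of the 84 tested members on each array, minus the mean of its stage, coloured by complex, with black bars for the member median and grey bars for the median of all genes tested. Lower panel: the log2 excess of the 3′ over the 5′ signal of Actb. The members lay tightly on the E8.5 arrays, lay at a median of -0.74 on E13.5 replicate 2, where the Actb difference was 7.0, and stood at 0.54 and 0.56 on E13.5 replicate 1 and P90 replicate 1.

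The arrays also bore on the identity of the captured cells. The 10 markers of early neural crest and neural tube summed to 8515 to 10561 at E8.5, 2862 to 5409 at E13.5 and 778 to 945 at P90. Wnt1 of that list had signals of 433, 423 and 585 at E8.5 and at most 10.7 on the other 6 arrays, whereas Sox10 was higher at E13.5 (394, 481 and 543) than at E8.5 (232, 299 and 315). The 5 of 11 sensory neuron markers without empty cells summed to 262 to 419 at E8.5, 4474 to 6927 at E13.5 and 512 to 3213 at P90. Elavl4, Nefl, Pou4f1, Stmn2 and Tubb3 of that list had no value on any E13.5 array, so these sums leave them out. Isl1 made up most of the E13.5 sums, with 5141, 3153 and 5244 at E13.5 and 88.9, 1876 and 1420 at P90, while Ntrk3 lay between 41.1 and 70.8 on all arrays. Of 11 chromaffin cell markers annotated, the 8 without empty cells summed to 574 to 620.4 at E8.5, to 1683 to 4167 at E13.5 and to 12932, 26487 and 25438 on P90 replicates 1, 2 and 3. Left out of these sums were Hand2, with no value on any P90 array, Slc18a2, with none on P90 replicates 2 and 3, and Th, with none on P90 replicate 1. By the sums, P90 replicate 1 had the lowest chromaffin signal of its stage. The 8 of 10 endothelial markers without empty cells summed to 4708 there, against 1202 and 1393 on P90 replicates 2 and 3, and Fdx1, an electron donor of steroid synthesis in the adrenal cortex, had signals of 8173, against 4787 and 4152. The 2 of 11 cortex markers without an empty cell, Fdx1 itself and Cyp11a1, summed to 8246 there, against 4813 and 4168, nearly all of it from Fdx1. Cyp11a1 was at 73.2, 26.2 and 16.3 on P90 replicates 1, 2 and 3. Star, Cyp21a1, Cyp11b1, Hsd3b1 and Mrap had no value on any P90 array. P90 replicate 1 was also the highest array of its stage for most members, and the part of chromaffin, endothelial and cortex cells in the results was not tested.

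Compared with E8.5 neural crest, the E13.5 dorsal root ganglion showed few differences in respiratory genes that passed the test. Cox7a1 and Ndufv3 rose and Ndufaf4 fell, and 81 of 84 members did not pass (limma on log2(signal + 16), Benjamini-Hochberg adjusted over 13748 genes, adjusted p under 0.05). These 3 calls are 3.57% of the members, against 16.5% of all genes tested, with 9.27% of all genes higher and 7.22% lower. The median member change was 0.12, against 0.02 for all genes; it turned to -0.21 without E13.5 replicate 1 and was 0.53 without E13.5 replicate 2 (-0.01 and 0.10 for all genes). Complex I subunits had the highest median, at 0.32, with 29 of 33 above 0 and a range of -0.36 to 1.04. ATP synthase genes had a median of 0.11, complex IV 0.13, complex III -0.08, complex II -0.12 and complex I assembly factors -0.21. Of the 84 tested, 7 members lay higher on all 3 E13.5 arrays than on all 3 E8.5 arrays (18.6% of all genes tested did): Ndufa12, Ndufa5, Ndufv3, Cox6a1, Cox6b1, Cox7a1 and Cox7a2l. Another 4 lay lower (17.1% of all genes): Atp5g2, Ndufaf4, Ndufaf6 and Cox7c.

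The few calls do not show that the other genes were alike at both stages. The median SE of a member's change was 0.45, and the 95% interval stayed within 2-fold in either direction for 14 of 84 members (16.7%), against 23.7% of all genes. Among those 14 were Uqcrb, Sdhb, Cox5b, Cox7a2 and Atp5g3. With E13.5 replicate 2 and P90 replicate 1 left out, a setting chosen after seeing the data, 18 members were called higher and 1 lower (17.9% and 9.34% of all genes), and under quantile normalization 10 were higher and 1 lower (11.5% and 9.97% of all genes).

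The adult P90 adrenal medulla, set against the E13.5 ganglion, differed in Cox8b, which rose, and Ndufaf6, which fell. The other 82 of 84 members did not pass limma's test at an adjusted p under 0.05. The 2 calls are 2.38% of the members, against 9.48% of all genes tested, with 3.54% higher and 5.94% lower. The median member change was -0.22, against -0.05 for all genes, and 60 of 84 changes were below 0. Under quantile normalization the member median turned to 0.05, with 2 members called in each direction (5.68% of all genes higher and 7.74% lower). By complex, the medians were -0.18 for complex I subunits, -0.10 for assembly factors, 0.10 for complex II, -0.04 for complex III, -0.37 for complex IV and -0.29 for ATP synthase. Cox8b was higher on all 3 P90 arrays than on all 3 E13.5 arrays, and Ndufaf6, Ndufa5 and Cox7a2l were lower, against 9.59% of all genes higher and 13.9% lower by the same measure.

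Single arrays moved this comparison as well. Without E13.5 replicate 2, 4 members were called lower, against 9.13% of all genes, and without P90 replicate 1, 2 were, against 6.21%. The median turned to 0.04 without E13.5 replicate 1 and to 0.050 without P90 replicate 3. Without both E13.5 replicate 2 and P90 replicate 1, 41 members were called lower and 1 higher, against 20.2% and 5.71% of all genes, and the median member change was -0.91, against -0.32 for all genes. Leaving out the lowest E13.5 array and the highest P90 array moves the difference down by construction. Cox8a and Ndufs1 were then called lower, at -1.20 and -1.55, against differences of 0.16 and 0.00 with all arrays.

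Between P90 adrenal medulla and E8.5 neural crest, 5 members passed. Cox7a1, Cox8b and Ndufa6 rose, and Ndufaf4 and Ndufaf6 fell. They are 5.95% of the members, against 23.3% of all genes tested, with 10.9% higher and 12.5% lower. The median member change was -0.13, against 0.00 for all genes; it was -0.38 without P90 replicate 1 and turned to 0.14 without P90 replicate 3 (-0.10 and 0.08 for all genes), and it was 0.27 under quantile normalization, with 15 members called higher and 3 lower (14.8% and 15.4% of all genes). The medians by complex were 0.03 for complex I subunits, -0.25 for assembly factors, -0.11 for complex II, -0.26 for complex III, -0.15 for complex IV and -0.36 for ATP synthase. Without E13.5 replicate 2 and P90 replicate 1, 4 members were called higher and 18 lower, against 15.3% and 23.1% of all genes. On all 3 P90 arrays, 7 of the 84 lay above all 3 E8.5 arrays (20.3% of all genes did) and 8 lay below them (23.6%). At an unadjusted p under 0.05, limma gave 3 members higher and 1 lower at E13.5 over E8.5 (15.2% and 13.2% of all genes), 1 and 5 at P90 over E13.5 (8.51% and 12.8%) and 5 and 3 at P90 over E8.5 (17% and 18.5%). In limma's F-test for a difference between any stages, 4 members passed (4.76%), against 26.3% of all genes.

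**Figure D2:**
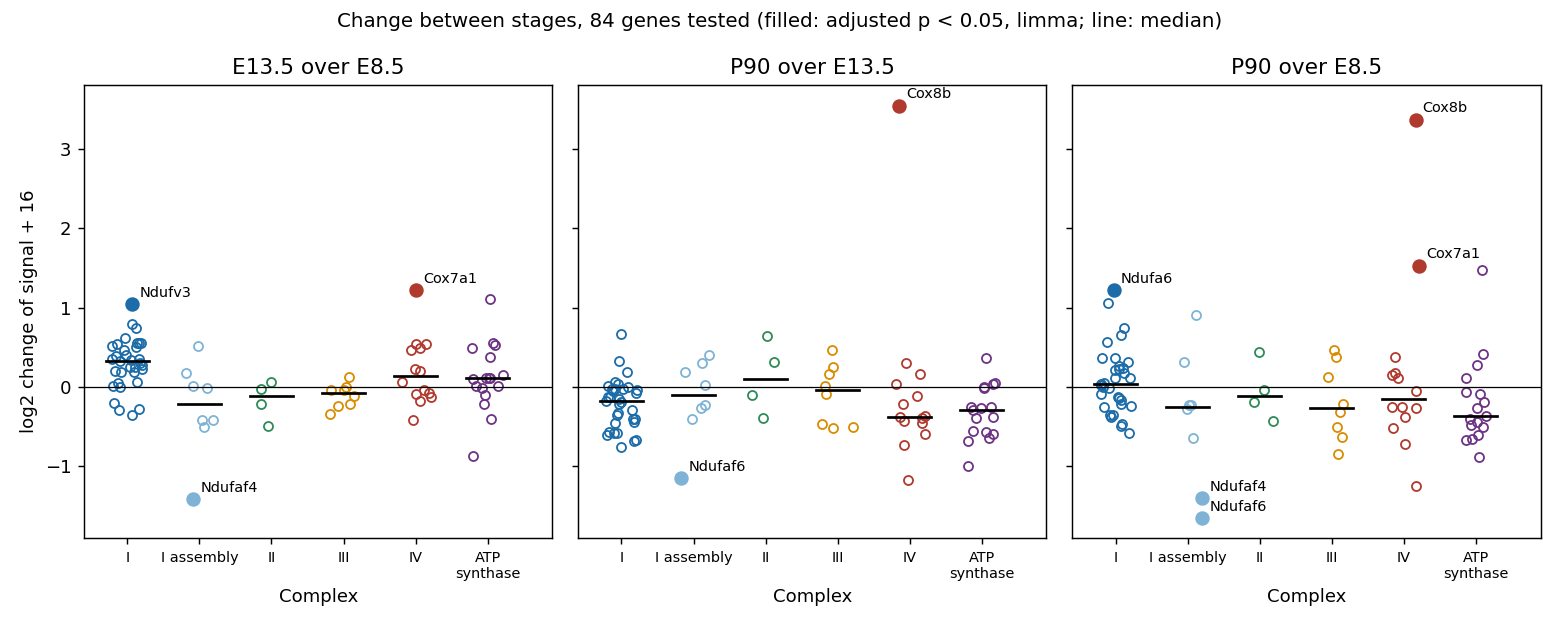
Log2 change of signal + 16 of the 84 tested members by complex, for E13.5 over E8.5, P90 over E13.5 and P90 over E8.5. Filled points passed limma's test at an adjusted p under 0.05 and bars are medians. Most genes lay within 1 log2 unit of 0, and Cox8b stood alone at 3.55 and 3.37 in the 2 comparisons of P90.

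Complex I, the NADH dehydrogenase, gave the calls that lay among housekeeping subunits. Ndufv3, an accessory subunit of the NADH-oxidising arm, had signals of 1968, 1763 and 1702 at E8.5, 4004, 3201 and 4085 at E13.5 and 3957, 2928 and 2437 at P90. All E13.5 and all P90 arrays were above all E8.5 arrays. It rose by 1.04 ± 0.30 (SE) on the log2 scale at E13.5 over E8.5 (limma, adjusted p = 0.0366), and its change at P90 over E8.5 was 0.75 ± 0.30 (adjusted p = 0.101). The E13.5 call was lost without any 1 of the 3 E8.5 arrays, E13.5 replicate 1, E13.5 replicate 3 or P90 replicate 2, at adjusted p of 0.0725 to 0.132. With replicate number as a block in the fit, and with the mean of all probe sets of a gene, it was lost too (limma, adjusted p = 0.0592 and 0.0609). Ndufv3 had 1 probe set, so with the mean its change stayed at 1.04 and only its adjusted p moved.

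Ndufa6, an accessory subunit that holds the acyl carrier protein of complex I, had signals of 575, 687 and 646 at E8.5, 1205, 653 and 1051 at E13.5 and 2073, 1395 and 1170.1 at P90. The P90 arrays lay above all E8.5 arrays, and the E13.5 arrays overlapped both. It rose by 1.22 ± 0.38 at P90 over E8.5 (limma, adjusted p = 0.0359), with 0.55 ± 0.38 at E13.5 over E8.5 and 0.67 ± 0.38 at P90 over E13.5, neither past the test. The P90 call was lost without any 1 of the 3 E8.5 arrays, E13.5 replicate 3, P90 replicate 1 or P90 replicate 2, at adjusted p of 0.0530 to 0.105. With replicate number as a block in the fit it was lost too (limma, adjusted p = 0.0538).

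The core subunits that carry electrons through complex I did not pass in any comparison. Ndufv1, which binds NADH and the flavin, had signals of 1612, 1297 and 1247 at E8.5, 2735, 898 and 1581 at E13.5 and 1822, 971 and 541 at P90. Ndufs1, which holds iron-sulfur clusters next to it, had 391, 653 and 536 at E8.5, 1085, 112 and 491 at E13.5 and 1101, 301 and 188 at P90. In both genes the 3 stages overlapped, and the lowest E13.5 value was on replicate 2. Their changes ran from -0.66 ± 0.51 for Ndufv1 at P90 over E13.5 to 0.19 ± 0.51 for the same gene at E13.5 over E8.5. Ndufa5, an accessory subunit chosen here after its values were seen, had 1494, 1288 and 1545 at E8.5, 2763, 2083 and 2711 at E13.5 and 1744, 1628 and 1318 at P90. Its E13.5 arrays lay above all others, and neither its change of 0.79 ± 0.31 at E13.5 over E8.5 (adjusted p = 0.114) nor that of -0.68 ± 0.31 at P90 over E13.5 (adjusted p = 0.235) passed. Over the 33 subunits tested, the log2 differences ran from -0.76 to 0.67 at P90 over E13.5 and from -0.57 to 1.22 at P90 over E8.5. Ndufb4, a membrane-arm subunit, lay between 5.79 and 21.9 on all arrays and was not tested.

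Among the assembly factors of complex I, which help build the complex without staying in it, 2 of 8 fell at P90 over E8.5 (12.5% of all genes did), 1 of 8 at E13.5 over E8.5 (7.22%) and 1 of 8 at P90 over E13.5 (5.94%). Ndufaf4, which with Ndufaf3 builds the quinone-binding module, had signals of 1049, 1476 and 1499 at E8.5, 533, 351 and 611 at E13.5 and 807, 492 and 299.6 at P90. The E8.5 arrays lay above all others, and the E13.5 and P90 arrays overlapped. It fell by 1.42 ± 0.43 on the log2 scale at E13.5 over E8.5 (limma, adjusted p = 0.0421) and by 1.40 ± 0.43 at P90 over E8.5 (adjusted p = 0.0348). The first of these calls was lost without any 1 of the 6 arrays compared or P90 replicate 2 (adjusted p of 0.0668 to 0.154), and the second without any 1 of the E8.5 arrays, P90 replicate 2 or P90 replicate 3 (0.0550 to 0.126). Both calls of Ndufaf4 were lost with replicate number as a block in the fit (limma, adjusted p = 0.0687 and 0.0555), and the first without the filter (0.0507). Its dimmer probe set gave -1.47 and -1.72 in the same comparisons and passed in neither (adjusted p = 0.122 and 0.0568 with each probe set tested on its own).

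Ndufaf6, a factor needed early in complex I assembly, was lower on the arrays of each later stage. Its signals were 151, 197 and 176 at E8.5, 134, 89.3 and 136 at E13.5 and 52.8, 56.5 and 28.4 at P90, and no array of a stage overlapped with those of another. It fell by 1.65 ± 0.30 at P90 over E8.5 (limma, adjusted p = 0.00229) and by 1.15 ± 0.30 at P90 over E13.5 (adjusted p = 0.0333), while the change of -0.50 ± 0.30 at E13.5 over E8.5 did not pass. The call at P90 over E8.5 was kept under all 26 alternatives tried. The call at P90 over E13.5 was lost when any 1 array other than E8.5 replicate 1, E13.5 replicate 2 and P90 replicate 1 was left out, at adjusted p of 0.0547 to 0.152. With replicate number as a block, without the filter and in a fit of only the 6 arrays compared it was lost too (limma, adjusted p = 0.0578, 0.0518 and 0.0726). Ndufaf3 had 156, 120.1 and 173 at E8.5, 314, 118 and 274 at E13.5 and 463, 304 and 177 at P90; its change of 0.91 ± 0.44 at P90 over E8.5 did not pass (adjusted p = 0.164).

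None of the 4 subunits of complex II, the succinate dehydrogenase that also belongs to the tricarboxylic acid cycle, passed in any comparison. Sdha, the flavoprotein, had signals of 1194, 1275 and 1277 at E8.5, 1965, 440.1 and 1432 at E13.5 and 3470, 1421 and 988 at P90. Sdhb, the iron-sulfur subunit, had 2298, 2057 and 1966 at E8.5, 2762, 1698 and 2250.1 at E13.5 and 3501, 1780 and 1365 at P90. The stages overlapped in both, and P90 replicate 1 was the highest of all 9 arrays. The intervals of Sdhb stayed within 2-fold in every comparison, running from -0.95 to 0.75 log2 units at P90 over E13.5. Sdhc and Sdhd, the membrane anchors, had changes from -0.49 ± 0.59 for Sdhc at E13.5 over E8.5 to 0.31 ± 0.59 for Sdhc at P90 over E13.5.

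No member of complex III passed either, and at an unadjusted p under 0.05 limma gave 0 of the 4 complex II and 0 of the 8 complex III genes in each comparison, against 28.4%, 21.3% and 35.5% of all genes at E13.5 over E8.5, P90 over E13.5 and P90 over E8.5. Uqcrfs1, the Rieske iron-sulfur protein, had signals of 1267, 1494 and 1194 at E8.5, 2912, 323 and 1142 at E13.5 and 1902, 548 and 358 at P90. Uqcrc1, a core protein, had 1161, 971 and 1025 at E8.5, 2145, 479 and 880.3 at E13.5 and 1531, 511 and 388 at P90. Both were low on E13.5 replicate 2 and on P90 replicates 2 and 3, and high on the first array of both later stages, so that all stages overlapped. Their changes at P90 over E8.5 were -0.84 ± 0.75 for Uqcrfs1 and -0.63 ± 0.60 for Uqcrc1. Uqcrb, a small subunit chosen after its values were seen, had the smallest SE of the 84 members tested, with a difference of -0.23 ± 0.28 at E13.5 over E8.5 and of -0.22 ± 0.28 at P90 over E8.5 (adjusted p = 0.657 and 0.628), each with an interval within 2-fold.

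Complex IV, the cytochrome c oxidase, held the isoform that changed most. Cox8b had signals of 30.7, 11.9 and 22.8 at E8.5, 31.0, 10.2 and 12.5 at E13.5 and 66.3, 1044 and 625 at P90. At E8.5 and E13.5 the gene lay close to or below the filter of 26.1, and at P90 it was high on 2 arrays and low on replicate 1, which still lay above all 6 arrays of the earlier stages. It rose by 3.55 ± 0.73 at P90 over E13.5 (limma, adjusted p = 0.00941) and by 3.37 ± 0.73 at P90 over E8.5 (adjusted p = 0.00623). These sizes depend on the pseudocount: they were 4.38 and 4.05 with a pseudocount of 1 and 2.51 and 2.44 with 64. The gene passed the filter only through its P90 arrays. The filter signal of 26.1 was also set as a floor for the earlier stages, each of which had 2 of 3 arrays at or below it. The P90 geometric mean was then 12.7-fold that at E13.5 and 12.8-fold that at E8.5. The floor can only lower these ratios, but they take no account of the spread of the P90 arrays, from 66.3 to 1044, and are not lower bounds. Without P90 replicate 1 the changes were 4.65 (adjusted p = 4.7e-05) and 4.48 (adjusted p = 1e-05), and without P90 replicate 2 they were 2.81 (adjusted p = 0.0342) and 2.63 (adjusted p = 0.0233). With E13.5 replicate 3 left out, the first of these calls was lost (adjusted p = 0.0579), and the gene did not pass a filter at the 60th percentile of signals, so that it could not be tested there.

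The array of P90 on which Cox8b was low was the one with low chromaffin signals. Dbh, which makes noradrenaline, was at 305, 2172 and 2072 on P90 replicates 1, 2 and 3, and Pnmt, which makes adrenaline, was at 633, 3749 and 3289. Ndufa4l2, a paralogue of Ndufa4 that is not a member, was at 170, 663 and 498; its change of 1.17 ± 0.46 at P90 over E13.5 did not pass (adjusted p = 0.161). Of markers of other tissues known for Cox8b, Ucp1, the uncoupling protein of brown fat, was at 9.79, 2.43 and 1 on the P90 arrays, and Dio2, also of the brown fat list, at 132, 79.3 and 68.9. Ckm, the muscle creatine kinase, was at 90.3, 64 and 41.0, and Acta1, a muscle actin, at 465, 239 and 181. All of these were highest on P90 replicate 1, Ucp1 at signals below the filter of 26.1, whereas other genes of the same lists were lowest there, also at dim signals. Among the latter were Cidea at 24.4, 36.9 and 27.2, Myh6 at 24.7, 38.9 and 51.7 and Myog at 14.7, 35.3 and 41.4. Over the lists, the 6 of 9 brown fat and adipocyte markers without empty cells summed to 143 to 189 at E8.5, 255 to 306 at E13.5 and 183 to 240.5 at P90. The 11 of 15 muscle and heart markers summed to 521 to 649, 614 to 1383 and 579 to 828 at the same stages. The part of these cell types in the rise of Cox8b was not tested.

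**Figure D3:**
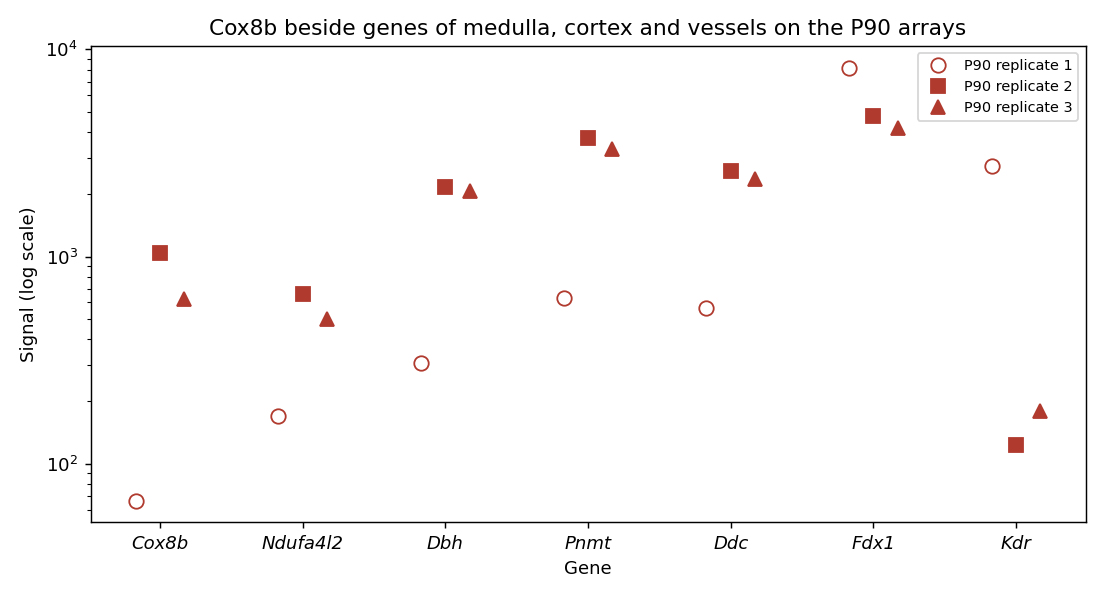
Signals of Cox8b, Ndufa4l2, the chromaffin genes Dbh, Pnmt and Ddc, the cortex gene Fdx1 and the endothelial gene Kdr on the 3 P90 arrays, on a log scale. Cox8b and the chromaffin genes were lowest on replicate 1 (66.3 for Cox8b, against 1044 and 625), and Fdx1 and Kdr were highest there.

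Cox7a1, the muscle and brown fat form of subunit VIIa, had signals of 75.8, 33.4 and 48.3 at E8.5, 139, 113 and 171 at E13.5 and 128, 229 and 184 at P90. All arrays of the later stages lay above all E8.5 arrays. It rose by 1.22 ± 0.33 at E13.5 over E8.5 (limma, adjusted p = 0.0268) and by 1.53 ± 0.33 at P90 over E8.5 (adjusted p = 0.00637), with 0.31 ± 0.33 at P90 over E13.5, which did not pass. The call at P90 over E8.5 was kept under all 26 alternatives. The call at E13.5 over E8.5 was lost when E8.5 replicate 2, E8.5 replicate 3, E13.5 replicate 1 or E13.5 replicate 3 was left out, at adjusted p of 0.0530 to 0.141.

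The form of subunit VIIa found in most tissues, Cox7a2, did not pass: its signals were 5311, 5532 and 5541 at E8.5, 7117, 2851 and 6157 at E13.5 and 4626, 3550.0 and 2223 at P90, with -0.72 ± 0.39 at P90 over E8.5 (adjusted p = 0.214). Cox7a2l, which joins complexes III and IV into supercomplexes, had 3813, 3346 and 3397 at E8.5, 5960, 3918 and 4945 at E13.5 and 3335, 2910 and 2573 at P90. Its E13.5 arrays lay above those of both other stages, and its change of -0.73 ± 0.28 at P90 over E13.5 did not pass (adjusted p = 0.153). Of the subunit VIII forms, Cox8a, found in most tissues, had log2 differences of 0.22 ± 0.69, 0.16 ± 0.69 and 0.38 ± 0.69 at E13.5 over E8.5, P90 over E13.5 and P90 over E8.5. The testis form Cox8c stayed at signals of 201 to 297 on all arrays, with differences of 0.07 ± 0.31, -0.12 ± 0.31 and -0.05 ± 0.31 and intervals within 2-fold. None of these passed.

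For subunits VIa and VIb, the forms of most tissues were measured and the tissue forms did not pass the filter, which asks for 3 arrays above 26.1. Cox6a1 had signals of 3412, 3436 and 3370.2 at E8.5, 6236, 3723 and 5270.3 at E13.5 and 5829, 3667 and 2525 at P90. Cox6b1 had 3751, 4672 and 4331 at E8.5, 6927, 4925 and 6179 at E13.5 and 6597, 4256 and 3384 at P90. In both genes all E13.5 arrays lay above all E8.5 arrays, with changes of 0.54 ± 0.35 (adjusted p = 0.354) and 0.49 ± 0.31 (adjusted p = 0.343) that did not pass. Cox6a2, the muscle form, lay between 10.8 and 34.0 on all arrays and Cox6b2, the testis form, between 6.09 and 20.2 on the 8 arrays that had a value. Cox7b2, another testis form, lay between 7.74 and 20.6.

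Cox4i1, Cox5a and Cox5b, nuclear subunits that surround the catalytic core, did not pass in any comparison of the main fit. Cox5a came nearest: its signals were 4410.3, 4061 and 3992 at E8.5, 6530, 2140.4 and 4390 at E13.5 and 3444, 1560.1 and 973 at P90. All P90 arrays lay below all E8.5 arrays, with a change of -1.25 ± 0.49 (adjusted p = 0.0923). Cox5a was called lower there under quantile normalization, scaling to the 75th percentile, the Actb difference as a covariate and array weights. The same held without E13.5 replicate 2, without P90 replicate 1 and without both. Apart from the 75th percentile scaling, these settings also called it lower at P90 over E13.5. Cox5b had log2 differences of -0.09 ± 0.41, -0.43 ± 0.41 and -0.52 ± 0.41 and Cox4i1 of -0.04 ± 0.54, -0.21 ± 0.54 and -0.25 ± 0.54 at E13.5 over E8.5, P90 over E13.5 and P90 over E8.5, with overlapping stages in each. Ndufa4, now assigned to complex IV, had 1249.9, 2063 and 1796 at E8.5, 3686, 744 and 2559 at E13.5 and 3734, 1188 and 610.1 at P90 and did not pass either. Cox7c, a small subunit chosen after its values were seen, was lower on all 3 E13.5 arrays (88.9, 138 and 146) than on all 3 E8.5 arrays (165, 151 and 193), with a difference of -0.42 ± 0.31 (adjusted p = 0.419).

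**Figure D4:**
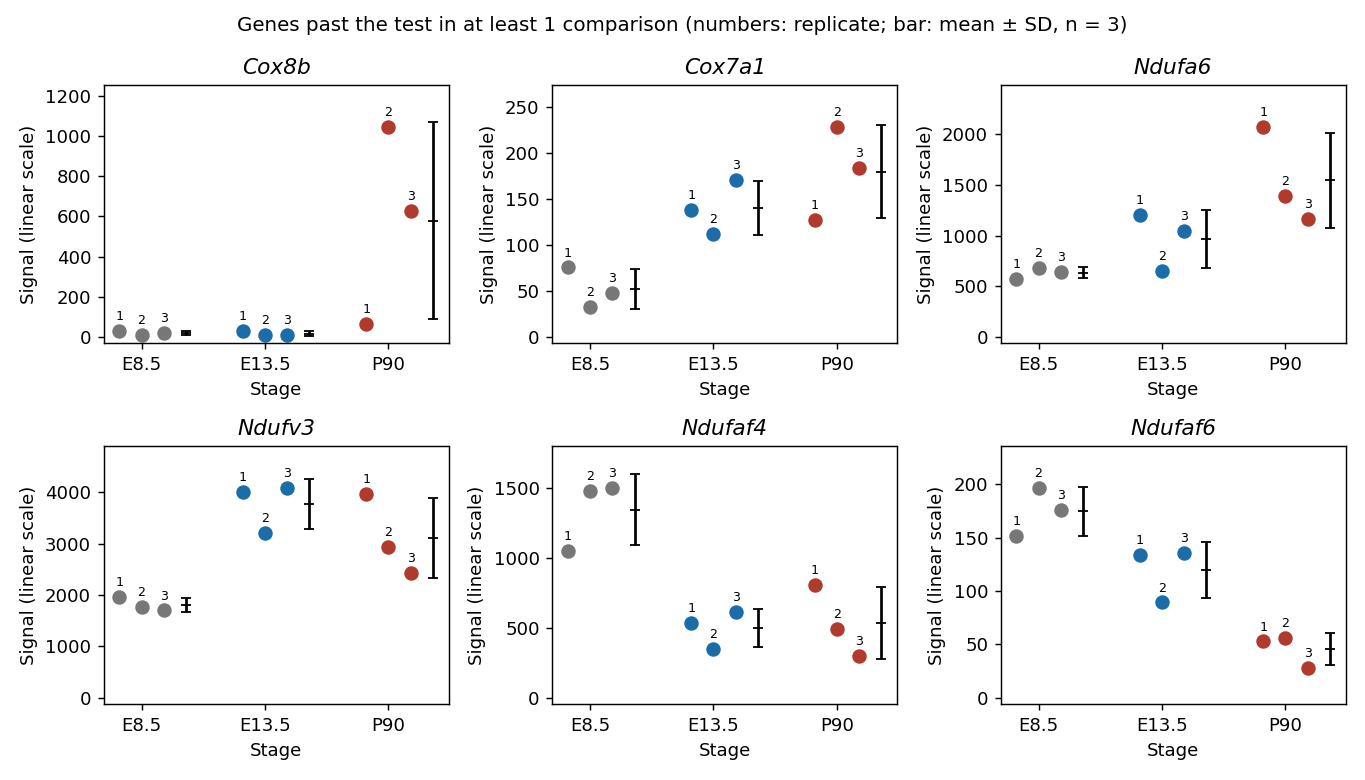
Signal on each array of the 6 members that passed limma's test in at least 1 comparison, with numbers for replicates and bars for mean ± SD (n = 3 arrays per stage). Cox8b was high on P90 replicates 2 and 3, Cox7a1 and Ndufv3 were above E8.5 on all later arrays, and Ndufaf4 and Ndufaf6 were below E8.5 on all later arrays.

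None of the 17 ATP synthase genes passed limma's test in any comparison; at an unadjusted p under 0.05, 1 was higher at P90 over E8.5 (17% of all genes were) and 0 differed in the other comparisons. Atp5b and Atp5a1, which form the catalytic head, overlapped over the stages: Atp5b had signals of 1024, 2602 and 2087 at E8.5, 6348, 306 and 1784 at E13.5 and 4262, 653 and 552 at P90, and Atp5a1 3460.3, 3566 and 3393 at E8.5, 5828, 2062 and 4294 at E13.5 and 5751, 2365 and 2060.0 at P90. Their changes at P90 over E8.5 were -0.61 ± 1.0 and -0.19 ± 0.46. Atp5c1, the rotating gamma subunit, had log2 differences of 0.12 ± 0.73 at E13.5 over E8.5 and of 0.11 ± 0.73 at P90 over E8.5. The interval of Atp5b at E13.5 over E8.5, from -2.39 to 1.97, was among the widest of the members. Over all 17 genes the log2 differences ran from -0.87 to 1.11 at E13.5 over E8.5 and from -0.88 to 1.47 at P90 over E8.5.

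Atp5g1, Atp5g2 and Atp5g3 encode the same mature protein, the c subunit of the rotor ring, with different import sequences. Atp5g1 had signals of 858, 1073 and 934 at E8.5, 1449, 233 and 1049 at E13.5 and 686, 661 and 455 at P90. Atp5g2 had 1771, 1781 and 1743 at E8.5, 1680.4, 395 and 1315 at E13.5 and 1466, 994 and 593 at P90. All P90 arrays of these genes lay below all E8.5 arrays, with changes of -0.67 ± 0.57 (adjusted p = 0.442) and -0.88 ± 0.53 (adjusted p = 0.264) that did not pass. Atp5g3 had 3062, 5231 and 4983 at E8.5, 6065, 2530 and 5084 at E13.5 and 6267, 2979 and 2477 at P90, and its stages overlapped. Atp5l, a subunit of the membrane part chosen after its values were seen, had 40.6, 89.9 and 74.2 at E8.5, 297, 47.7 and 254.9 at E13.5 and 230, 218 and 184 at P90. All P90 arrays of Atp5l were above all E8.5 arrays, with a change of 1.47 ± 0.53 that missed the threshold (adjusted p = 0.0683). It was called higher there under scaling to the 75th percentile, the Actb difference as a covariate, array weights and a fit of only the 6 arrays compared. The same held without E13.5 replicate 1, without E13.5 replicate 2, and without E13.5 replicate 2 and P90 replicate 1 together.

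Summed over the 82 members without an empty cell, the respiratory genes took, of the signal of 12756 such genes, 2.21 ± 0.04% on the E8.5 arrays, 2.65 ± 0.32% on the E13.5 arrays and 2.46 ± 0.27% on the P90 arrays (mean ± SD over 3 arrays each). All later arrays lay above the highest E8.5 array, by little on P90 replicates 2 and 3 (2.34% and 2.27%, against at most 2.26%), while P90 replicate 1 was at 2.76%. The totals leave out every gene with an empty cell on any array. Among these were stage markers such as Stmn2 and Tubb3, without a value at E13.5, and Star, without a value at P90. The part of these omissions in the shares was not tested. Complex I subunits made 0.713 to 0.758% on the E8.5 arrays, 0.946 to 1.05% at E13.5 and 0.885 to 1.02% at P90, so that all later arrays were higher. Complex IV made 0.501 to 0.514%, 0.596 to 0.672% and 0.485 to 0.565%, higher on all E13.5 arrays than on all E8.5 arrays. ATP synthase made 0.538 to 0.593%, 0.480 to 0.833% and 0.499 to 0.676%, with overlap between all stages. The complex I assembly factors made 0.0504 to 0.0587%, 0.0380 to 0.0481% and 0.0512 to 0.0544%, lower on all E13.5 arrays than on those of both other stages. Complexes II (0.0692 to 0.0738%, 0.0660 to 0.0754% and 0.0724 to 0.113%) and III (0.269 to 0.285%, 0.227 to 0.329% and 0.264 to 0.340%) overlapped between stages. With 3 arrays a stage, an exact two-sided permutation test cannot go below 0.1, and these sums are given as a description.

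**Figure D5:**
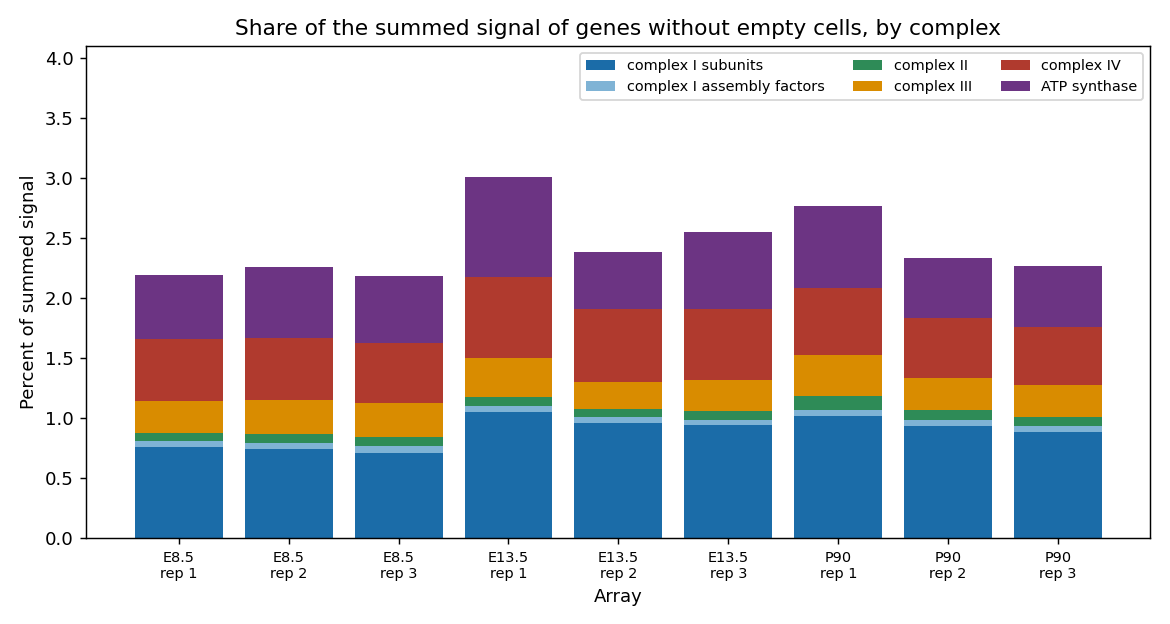
Percent of the summed signal of 12756 genes without an empty cell that fell to the respiratory chain and ATP synthase genes on each array, stacked by complex. The E8.5 arrays were at 2.19 to 2.26%, the E13.5 arrays at 2.39 to 3.01% and the P90 arrays at 2.27 to 2.76%.

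Where a gene had several probe sets, these did not always move alike. Of 47 members with 2 or more passing probe sets, all sets of a gene had the same sign in 30 at E13.5 over E8.5, in 22 at P90 over E13.5 and in 31 at P90 over E8.5. The widest gap between sets of a gene was 1.58 log2 units, for Sdha at P90 over E13.5. With each passing probe set tested on its own, an addition after seeing the data, Ndufa10 was the only further call at E13.5 over E8.5: its dimmer set rose by 0.99 (limma, adjusted p = 0.0274), while its brighter set was at 0.02. Cox8b, Cox7a1, Ndufa6, Ndufv3 and Ndufaf6 had 1 probe set each, so their calls have no second set to compare.

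Genes outside the symbol rule that serve the chain or belong to it were counted from the same limma fit. Of 36 assembly factors of the complexes outside the symbol rule, 0 were called at E13.5 over E8.5 and 0 at P90 over E13.5, against 16.5% and 9.48% of all genes. At P90 over E8.5, where 12.5% of all genes fell, 2 fell. These were Cox10, which makes the haem A of complex IV (-0.90 ± 0.27, adjusted p = 0.0327), and Higd1a, a small protein of the inner membrane (-1.34 ± 0.38, adjusted p = 0.0258). Both calls were lost when any 1 of the E8.5 arrays, P90 replicate 2 or P90 replicate 3 was left out, and with the mean of all probe sets of a gene, which gave -0.89 for Cox10 and -0.04 for Higd1a (adjusted p = 0.0512 and 0.971). Of the 3 genes Cycs, Cyct and Cyc1 and of 8 adenine nucleotide and proton carriers, none was called in any comparison. Cyc1 encodes cytochrome c1, a subunit of complex III that the symbol rule does not take in. Of all genes, 16.5% were called at E13.5 over E8.5, 9.48% at P90 over E13.5 and 23.3% at P90 over E8.5. Cycs, the electron carrier itself, had signals of 4810.3, 5074 and 5144 at E8.5, 7359, 2040.1 and 5648 at E13.5 and 3514, 2107 and 1103 at P90, with -1.31 ± 0.51 at P90 over E8.5 (adjusted p = 0.0860). Of 16 tricarboxylic acid cycle genes, 1 fell at P90 over E8.5, against 12.5% of all genes: Dlat of the pyruvate dehydrogenase complex (-1.31 ± 0.42, adjusted p = 0.0439). That call was also lost without any 1 of the E8.5 arrays, E13.5 replicate 3, P90 replicate 2 or P90 replicate 3. It was lost as well without a filter, with the mean of all probe sets of a gene and with each probe set on its own.

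Mitochondrial ribosomal protein genes, which serve the translation of subunits encoded in mitochondrial DNA, gave 0 rises and 9 falls of 76 at P90 over E8.5. Of all genes, 10.9% were higher and 12.5% lower there, so the share of falls was near that of all genes. Mrpl12 had signals of 244, 185 and 170.0 at P90, against 2283, 968 and 897 at E8.5, and fell by 2.58 ± 0.54 (limma, adjusted p = 0.00488). The median of the mitochondrial ribosomal genes was -0.65 in that comparison and -0.67 at E13.5 over E8.5. It was -0.13 and 0.12 for the respiratory chain members and 0.00 and 0.02 for all genes. Only Mrpl19 was called at E13.5 over E8.5, where 7.22% of all genes were lower. Of 20 regulators of mitochondrial biogenesis, 1 rose and 2 fell at E13.5 over E8.5 and at P90 over E8.5, and 0 were called at P90 over E13.5. Of all genes, 9.27% rose and 7.22% fell in the first of these comparisons and 10.9% and 12.5% in the second. Ppargc1b, a coactivator of respiratory genes, had 154, 171 and 129 at E13.5, against 23.0, 23.7 and 55.1 at E8.5, and rose by 1.80 ± 0.34 (adjusted p = 0.00403) and, at P90 over E8.5, by 1.30 ± 0.34 (adjusted p = 0.0169). Twnk, the helicase of mitochondrial DNA, fell by 1.41 ± 0.44 at E13.5 over E8.5 (adjusted p = 0.0462) and by 1.53 ± 0.44 at P90 over E8.5 (adjusted p = 0.0254), and Gabpb1, a partner of GABPA with an empty cell on P90 replicate 3, by 1.29 ± 0.34 and 1.46 ± 0.38 (adjusted p = 0.0263 and 0.0180). Over the alternatives the highest adjusted p was 0.135 and 0.103 for the falls of Twnk, 0.916 for that of Gabpb1 at P90 over E8.5, 0.338 for that of Mrpl19, 0.0289 for the rise of Ppargc1b at E13.5 over E8.5 and 0.0258 for the fall of Mrpl12. The P90 value of Ppargc1b and the E13.5 value of Gabpb1 were chosen after they were seen.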

How the data were processed

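Per the labels' protocols, a PicoPure kit was used for extraction, and 400 ng of total RNA per sample was turned into cRNA carrying biotin. The deposited table holds 1 linear intensity per probe set and array, with a floor of 1. MAS5, GCOS, RMA and GCRMA are named in the submitters' processing notes without role or version, and the scaling used by the authors is not given in the sources used here. Of all cells, 8048 (1.98%) were empty. Some genes had no value on any array of a stage, as Stmn2 at E13.5 and Star at P90.

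Gene symbols came from the platform annotation. Intensities were used as log2(signal + 16) with no further scaling, so changes of dim genes are understated. Probe sets had to pass the 40th percentile of all values (signal 26.1) on at least 3 of 9 arrays, with at least 2 values per stage, and the brightest per gene was used. All 13748 genes were fitted at once in limma 3.58.1 (R 4.3.3; lmFit, eBayes with trend, two-sided, 6 residual degrees of freedom) and adjusted with Benjamini-Hochberg. The fit was run on simulated data in which each gene varied independently on each array. The joint movement of members within a stage was not simulated, so that run does not show how the fit deals with it. The small number of arrays limits precision.

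Members and lists were chosen with earlier results of these data known. Named genes are called members, the most changed called genes of each list, isoforms and core subunits, and any other is marked as picked with its values in view. Alternatives covered scaling, pseudocount, filters, variance model, probe set choice, a replicate block, the Actb difference, array weights and each array left out. Replicate numbers were not treated as pairs.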

Additional observations from a re-analysis of the deposited data

How the results depend on the processing

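Over each array left out in turn, the number of members called ran from 0 to 3 (higher) and 0 to 1 (lower) at E13.5 over E8.5, 0 to 1 and 0 to 4 at P90 over E13.5, 2 to 4 and 1 to 3 at P90 over E8.5, and 2 to 10 in the F-test, against 2, 1, 1, 1, 3, 2 and 4 with all arrays. Quantile normalization gave 10 higher at E13.5 over E8.5 (11.5% of all genes), and 2 higher and 2 lower at P90 over E13.5 (5.68% and 7.74%). It gave 15 higher at P90 over E8.5 (14.8%) and 16 in the F-test (34.1%). Scaling to the 75th percentile gave 5 higher at P90 over E8.5 (12.1% of all genes). Without a filter, 0 were lower at E13.5 over E8.5 and 0 at P90 over E13.5 (5.11% and 4.14% of all genes). A filter at the 60th percentile left 0 higher at P90 over E13.5 (3.48% of all genes), and a fit of only the 6 arrays compared left 0 lower there (3.86%). The mean of all probe sets gave 1 higher at E13.5 over E8.5 (9.54% of all genes) and a mean share of signal of 2.3% at E8.5. The replicate block gave 1 higher and 0 lower at E13.5 over E8.5 (8.83% and 6.82% of all genes). It gave 0 lower at P90 over E13.5 (5.47%) and 1 lower at P90 over E8.5 (12.2%). The deviations of same-numbered arrays correlated at -0.37 to 0.38, and 3 of 9 arrays correlated best with their own number, so the numbers were not taken as pairs. The Actb difference as a covariate gave 5 higher at E13.5 over E8.5, 5 lower at P90 over E13.5, 6 higher and 4 lower at P90 over E8.5 and 14 in the F-test. Gene by gene array weights gave 24 higher at E13.5 over E8.5, 24 lower at P90 over E13.5, 7 higher and 16 lower at P90 over E8.5 and 47 in the F-test. Without E13.5 replicate 2 and P90 replicate 1, added after seeing the data, 18 were higher at E13.5 over E8.5, 41 lower at P90 over E13.5 (median -0.91), 18 lower at P90 over E8.5 and 47 passed the F-test, and Cox8a (-1.20) and Ndufs1 (-1.55) turned downward at P90 over E13.5. Over single arrays left out and this pair, the highest changes there were 0.050 for the member median (without P90 replicate 3), and 0.79 for Cox8a and 0.71 for Ndufs1 (without E13.5 replicate 1). For these settings the cause was not tested. The counts with single arrays left out, with the Actb difference, with array weights and in the F-test without this pair stand here without the share of all genes called. They cannot be read as particular to the members. Of 74 named results that did not pass, 150 of 1920 alternatives changed the sign. Some of these results passed under other settings, as those of Cox5a and, under quantile normalization at E13.5 over E8.5, Cox6a1 and Cox6b1. Signals near the floor limit the dim isoforms, and 3 arrays per stage limit all counts.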
